A study of Mus musculus with 24 samples.

Results

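Small-RNA libraries of the hippocampus were compared between young and aged mice. Of the 24 libraries of the series, 6 belong to this comparison, 3 from 2-month-old and 3 from 15-month-old male C57BL/6J mice, with 1 mouse per library. All 6 mice were of the same strain and sex, and the labels name no treatment or genetic change in either group. The study names ORIENT BIO and the Korea Basic Science Institute as sources of its mice. It does not state which age came from which source, and the part of the source was not tested. The young mice are numbered 1 to 3 and the aged mice 4 to 6. Total RNA came from the whole hippocampus, so a lower level can come from fewer cells of a type or from less of the miRNA per cell, and these cannot be told apart.

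MicroRNAs (miRNAs) are short RNAs that bind mRNAs through their seed, bases 2 to 8 from the 5′ end, and lower the stability and translation of those mRNAs. Each is cut from a hairpin precursor, whose 2 strands give a 5p arm and a 3p arm, and 1 arm is often far more abundant than the other. Many miRNA genes lie in clusters that are transcribed together, and miRNAs that share a seed form a family with overlapping targets. Neurons of the brain express a large imprinted cluster between Dlk1 and Dio3, while miR-126 marks endothelial cells and miR-142 marks cells of the blood lineage.

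Of 1650 mature names in the 12 small-RNA libraries of both tissues, 1284 had at least 1 read in the hippocampus, and 715 passed the filter on low counts and were tested. In the quasi-likelihood test of edgeR, 29 names (4.06% of those tested) changed by more than 1.5-fold at a Benjamini-Hochberg adjusted p-value under 0.05. Log2 changes below are fitted log2 fold changes of 15 against 2 months. Among them, 15 (2.1%) were lower and 14 (1.96%) were higher at 15 months. The largest decreases were those of miR-296-5p, miR-19b-3p, miR-412-5p and miR-322-5p, and the largest increases those of miR-5100, miR-30f and miR-135a-1-3p. Of the 29 names, miR-296-5p and miR-412-5p were called in all 16 alternative settings, and the other 27 lost the call in at least 1 of them. The other called decreases lost it in 3 alternatives (miR-669a-5p, miR-669p-5p) to 7 (miR-467e-5p, miR-679-5p). The called increases lost it in 3 (miR-873a-3p) to 13 (miR-142a-5p), and those lost in 10 or more were miR-3084-3p, miR-8114, miR-135a-1-3p, miR-30f, miR-5099, miR-203-3p and miR-142a-5p.

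The sequences below are those of the miRNAs on which these results turn, with the seed in capitals, and were taken from RefSeq for GRCm38.p6. Of the tested names, 591 matched that table by name and sequence, among them 24 of the 29 called. The first set holds both arms of the precursors of miR-296-5p and miR-412-5p, the names called in all settings.
miR-296-5p: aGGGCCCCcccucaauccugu
miR-296-3p: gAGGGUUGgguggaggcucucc
miR-412-5p: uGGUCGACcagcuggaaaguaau
miR-412-3p: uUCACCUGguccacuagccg
The second set shares the seed of miR-15 and miR-16, and was chosen because miR-322-5p was lower while its seed mates were not called.
miR-322-5p: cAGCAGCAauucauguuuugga
miR-16-5p: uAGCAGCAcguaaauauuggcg
miR-15a-5p: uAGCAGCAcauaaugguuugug
miR-15b-5p: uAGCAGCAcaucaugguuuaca
miR-195a-5p: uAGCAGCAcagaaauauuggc
miR-497a-5p: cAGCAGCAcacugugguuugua
The third set holds the seeds of miR-19 and miR-17 from the miR-17/92 cluster and its copies.
miR-19b-3p: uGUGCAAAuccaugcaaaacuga
miR-19a-3p: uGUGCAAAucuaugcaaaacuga
miR-20a-5p: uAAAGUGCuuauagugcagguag
miR-17-5p: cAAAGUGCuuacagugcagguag
miR-93-5p: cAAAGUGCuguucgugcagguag
The last set holds miR-29a-3p, miR-100-5p, miR-5100 and miR-30f, which were called higher at 15 months, beside related miRNAs that were not called.
miR-29a-3p: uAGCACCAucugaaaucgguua
miR-29b-3p: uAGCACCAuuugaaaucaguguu
miR-29c-3p: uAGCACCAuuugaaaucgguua
miR-100-5p: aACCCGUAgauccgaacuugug
miR-99a-5p: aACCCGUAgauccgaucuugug
miR-5100: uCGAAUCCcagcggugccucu
miR-30f: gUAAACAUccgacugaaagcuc
miR-30a-5p: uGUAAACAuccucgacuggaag

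Total miRNA counts ranged from 12350104 to 14617174 in the young libraries and from 8834531 to 13819160 in the aged ones, and the library of aged mouse 4 was the smallest. Names detected numbered 1006 to 1035 in young and 947 to 999 in aged libraries. Across tested names, which are not independent replicates, log2 levels correlated at 0.991 to 0.995 between libraries of 1 age and at 0.984 to 0.993 between ages. On the first principal component (44.8% of the variance), the aged libraries lay at −10.4, −1.72 and −2.88 and the young ones between 2.83 and 6.67, so that aged mouse 4 stood apart. Levels are given in CPM, the counts scaled to a common library total after normalization by TMM, a method that sets the bulk of the names equal between libraries. The TMM normalization factors were 0.998 to 1.15 in young and 0.865 to 0.978 in aged libraries. Scaling by total reads in place of TMM moved the median log2 fold change over all tested names from −0.0037 to −0.217 and the calls to 33 lower and 3 higher. In the mRNA libraries of the same-numbered mice, hippocampal markers were present (Neurod6 at 37.7 to 65.6 FPKM, Prox1 at 3.73 to 9.12 FPKM). The choroid plexus marker Ttr stood at 1854, 2096 and 1359 FPKM in young and 719, 1375 and 2201 FPKM in aged mice, and aged mouse 4 had the lowest level of all 5 choroid plexus markers. The part of choroid plexus tissue in the other results was not tested. The hypothalamic marker Pmch was at 7.05, 5.2 and 0.4 FPKM in young and 1.3, 1.17 and 0.55 FPKM in aged mice, with overlap (log2 change −2.04, adjusted p = 0.186).

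Leaving out 1 library moved the number of calls strongly. Without aged mouse 4, 2 names were called, without young mouse 2 there were 4, and without young mouse 3 there were 6. Without aged mouse 6 the number was 12, without aged mouse 5 it was 25, and without young mouse 1 it was 29. The part of aged mouse 4's lower depth in these counts was not tested. No called name changed its direction in any of these fits. For all 29 called names the libraries of the 2 ages were fully separate in level, which held for 21.1% of all tested names. The names were called by a test of the difference between the ages, so this separation adds no support to the calls.

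**Figure D1:**
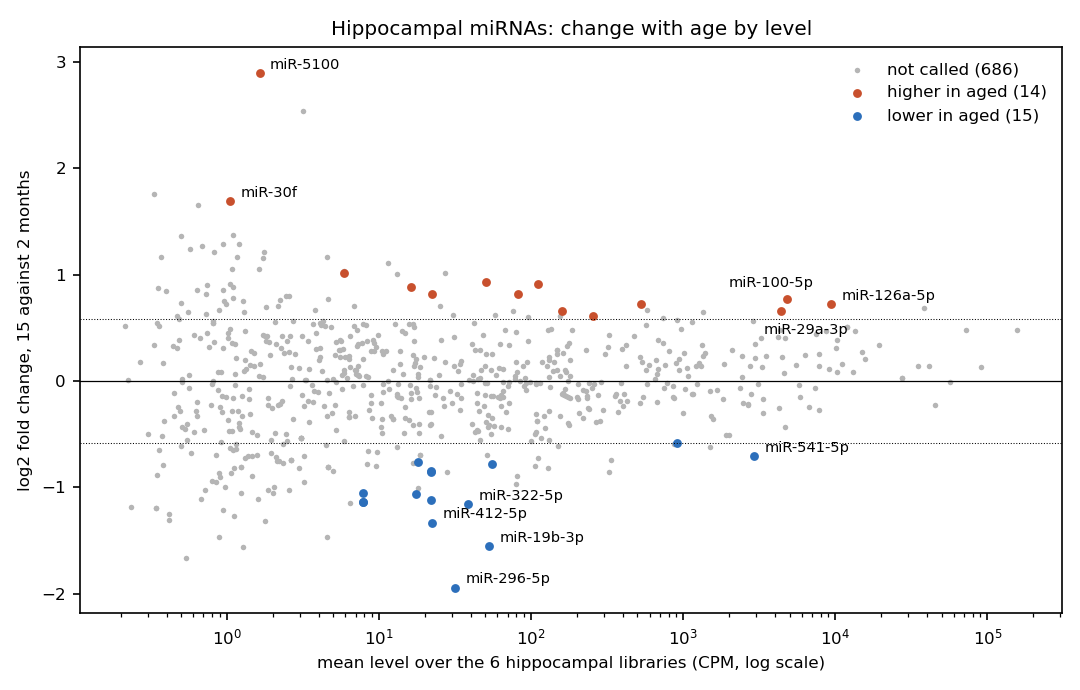
Log2 fold change of each of the 715 tested miRNAs (15 against 2 months, vertical axis) against its mean level in CPM (log scale), with dotted lines at 1.5-fold. The 14 called increases are red and the 15 called decreases blue, and 2 of the increases, miR-5100 and miR-30f, lie at the low end of the levels.

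miR-296-5p had the largest decrease. Its precursor lies on chromosome 2 (chr2:174267047-174267125, minus strand, GRCm38), a short distance from that of miR-298, on the strand opposite to the imprinted Gnas gene. The level of miR-296-5p was 46.4, 47.9 and 55.6 CPM in young mice 1 to 3 and 14.4, 10.2 and 14.5 CPM at 15 months 4 to 6. Every aged library was thus far below every young one, and the library of aged mouse 4 was not the lowest. The log2 change was −1.94 (standard error 0.18, adjusted p = 1.35e-05 from the quasi-likelihood test). Over the 16 alternatives, it ran from −2.15 to −1.84, with adjusted p-values of 9.72e-15 to 0.000301.

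The 3p arm of the same precursor did not show such a separation. miR-296-3p stood at 5.70, 4.23 and 5.16 CPM at 2 months and 5.24, 2.57 and 4.38 CPM at 15 months, with overlapping groups (log2 change −0.33, adjusted p = 0.568). The neighbouring miR-298-5p was at 106, 87.3 and 122 CPM at 2 months and at 64.0, 33.7 and 72.5 CPM at 15 months. Its aged libraries were all below the young ones, but its log2 fold change of −0.89 missed the threshold (adjusted p = 0.0739).

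miR-412-5p was the other miRNA called in all settings. It is encoded in the Dlk1-Dio3 cluster at chr12:109743289-109743368 (plus strand, GRCm38), across an exon boundary of the noncoding RNA Mirg. Levels were 29.0, 31.6 and 35.0 CPM at 2 months and 13.7, 12.9 and 11.5 CPM at 15 months. The aged libraries lay close together, at less than every young library. The log2 change was −1.33 (standard error 0.17, adjusted p = 0.000417), and it ran from −1.54 to −1.25 over the alternatives. Its 3p arm stood at 5.22, 3.92 and 4.29 CPM at 2 months and 5.37, 3.90 and 4.38 CPM at 15 months, a log2 change of 0.01 (adjusted p = 0.989).

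The balance of the 2 arms was then tested in each precursor, since arms of 1 hairpin share their transcription. The log2 ratio of 5p to 3p counts was compared with limma over the 6 libraries in 194 precursors whose arms were both tested and could be told from other precursors. In 1 precursor, mir-296, the ratio differed with age (0.515% of those tested, adjusted p = 0.0274). The 5p arm made up 89.1%, 91.9% and 91.5% of the mir-296 reads in young and 73.3%, 79.9% and 76.8% in aged mice, a change of −1.60 in log2 ratio (standard error 0.30). For mir-412 the 5p share was 84.7%, 89.0% and 89.1% in young and 71.9%, 76.7% and 72.4% in aged mice. This change of −1.35 in log2 ratio (standard error 0.30) missed the threshold (adjusted p = 0.0608), although the groups did not overlap.

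The next precursors by p-value were mir-145a, mir-335 and mir-99a, each at an adjusted p of 0.106. The 5p share of mir-145a, a miRNA of smooth muscle and pericytes, was 95.4% to 97.6% in young and 86.0% to 94.3% in aged libraries. That of mir-335 was 41.2% to 57.3% in young and 29.9% to 39.6% in aged libraries, and that of mir-99a 95.6% to 96.5% and 97.6% to 98.1%. An unadjusted p-value under 0.05 was reached by 28 precursors. The call of mir-296 was lost with young mouse 2 or 3, or aged mouse 4 or 5, left out. Without young mouse 1, 6 precursors were called, and without aged mouse 6, 4.

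**Figure D2:**
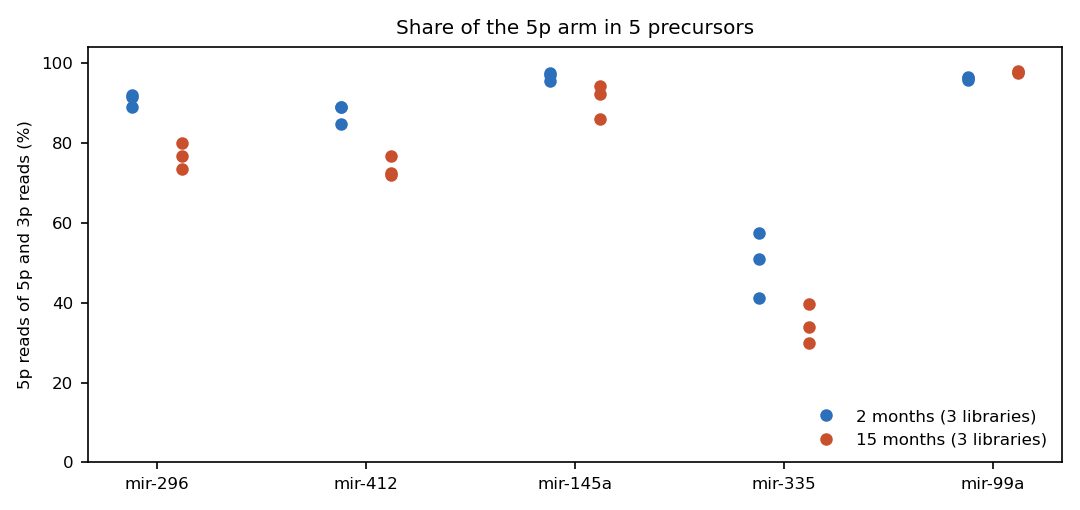
Share of 5p reads among the 5p and 3p reads of a precursor (percent, vertical axis) in each hippocampal library, for the 5 precursors with the lowest p-values of the arm test. Points are single libraries; in mir-296 the aged libraries lie at 73.3% to 79.9%, below the young ones at 89.1% to 91.9%.

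The mir-322 cluster on chromosome X (chrX:53047997-53054349, minus strand, GRCm38) encodes miRNAs that restrain the cell cycle, of which miR-322 is the mouse form of human miR-424. Of its 13 names, 9 were tested, and all 9 had negative log2 fold changes, with a median of −0.80 against −0.0037 over all tested names. Of the 9, 2 were called, both lower at 15 months (2.1% of all tested names were called lower), and 6 had all aged libraries below all young ones (10.6% of all tested names). The 4 names not tested had 0 to 23 reads over the 6 libraries. With 1 library left out, all 9 kept negative values, and the median ran from −1.07 to −0.68.

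miR-322-5p was at 44.1, 54.7 and 60.5 CPM at 2 months and at 21.2, 28.4 and 21.5 CPM at 15 months. No aged library reached the lowest young one, and the log2 change was −1.16 (standard error 0.27, adjusted p = 0.0277). miR-542-3p stood at 25.1, 23.7 and 22.5 CPM at 2 months and 10.5, 13.6 and 10.1 CPM at 15 months, with a log2 change of −1.06 (standard error 0.24, adjusted p = 0.0254). Both were called in every alternative that kept all libraries, and both lost it without any one of young mice 2 and 3 and aged mice 4 and 6. miR-322-3p, the other arm of mir-322, was at 14.7, 16.8 and 15.8 CPM at 2 months and 9.95, 11.8 and 8.99 CPM at 15 months. It was lower in each aged library as well, but its log2 fold change of −0.62 was not called (adjusted p = 0.110), whereas 2 alternatives called it.

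The most abundant member, miR-351-5p, had levels of 87.6, 148 and 167 CPM at 2 months and 64.2, 82.5 and 83.5 CPM at 15 months (log2 change −0.80, adjusted p = 0.128). The remaining members, miR-503-5p, miR-503-3p, miR-542-5p, miR-450a-5p and miR-450b-5p, had mean levels of 0.93 to 12 CPM at 2 months and log2 fold changes of −1.10 to −0.60, none of them called.

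The seed of miR-322-5p, AGCAGCA, is shared with miR-15a, miR-15b, miR-16, miR-195a and miR-497a, which lie on other chromosomes. Among these 6 miRNAs, miR-322-5p alone was called (2.1% of all tested names were called lower), and the median log2 fold change was −0.0018. miR-16-5p, the most abundant of them at a mean of 5251 CPM at 2 months and 5834 CPM at 15 months, had a log2 change of 0.15 (adjusted p = 0.651). miR-15b-5p was at −0.40 (adjusted p = 0.193) and miR-195a-5p at −0.03 (adjusted p = 0.956). Whether the change of miR-322-5p differed from those of its seed mates was not tested.

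The miR-17/92 cluster on chromosome 14 (chr14:115043671-115044506, plus strand, GRCm38) is known to promote proliferation, and 2 related clusters lie on chromosomes X and 5. In the 3 clusters together, 19 of 28 names were tested, 2 were called lower (against 2.1% of all tested names) and none higher, and 8 had all aged libraries below all young ones (against 10.6%). The median log2 fold change was −0.49, and it ran from −0.68 to −0.42 with 1 library left out. Of the 10 tested names from the chromosome 14 cluster, 9 had negative values, with a median of −0.82, and the exception was miR-92a-3p.

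miR-19b-3p, for which identical mature RNAs come from chromosomes 14 and X, was at 51.7, 84.7 and 101 CPM at 2 months and at 25.1, 32.1 and 23.6 CPM at 15 months. The young libraries spread more widely than the aged ones, which all lay lower (log2 change −1.55, standard error 0.33, adjusted p = 0.0237). Its seed mate miR-19a-3p had 4.45, 8 and 7.62 CPM at 2 months and 1.70, 3.27 and 2.12 CPM at 15 months, a log2 change of −1.47 that missed the threshold (adjusted p = 0.0987). miR-20a-5p fell from 65.2, 67.6 and 75.4 CPM to 34.3, 45.1 and 41.5 CPM (log2 change −0.78, standard error 0.17, adjusted p = 0.0237). The calls of miR-19b-3p and miR-20a-5p held in every alternative with all libraries. Both were lost without any one of young mice 2 and 3 and aged mice 4 and 6.

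The other members of the miR-17 seed family were not called, and whether they differed from miR-20a-5p was not tested. miR-17-5p was at 70.4 to 76.0 CPM at 2 months and 48.3 to 58.5 CPM at 15 months, without overlap but also without a call (log2 change −0.43, adjusted p = 0.136). miR-93-5p and miR-106b-5p from chromosome 5 had log2 fold changes of −0.02 and −0.05, and miR-106a-5p from chromosome X one of 0.08. miR-20b-5p, also from chromosome X, was at 2.43, 2.72 and 2.14 CPM at 2 months and 0.917, 1.01 and 3.10 CPM at 15 months, with overlap (log2 change −0.49, adjusted p = 0.579). The abundant miR-92a-3p stood at 857, 808 and 1079 CPM at 2 months and 1179, 931 and 1177 CPM at 15 months. Its groups overlapped, and its log2 fold change was 0.26 (adjusted p = 0.342).

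**Figure D3:**
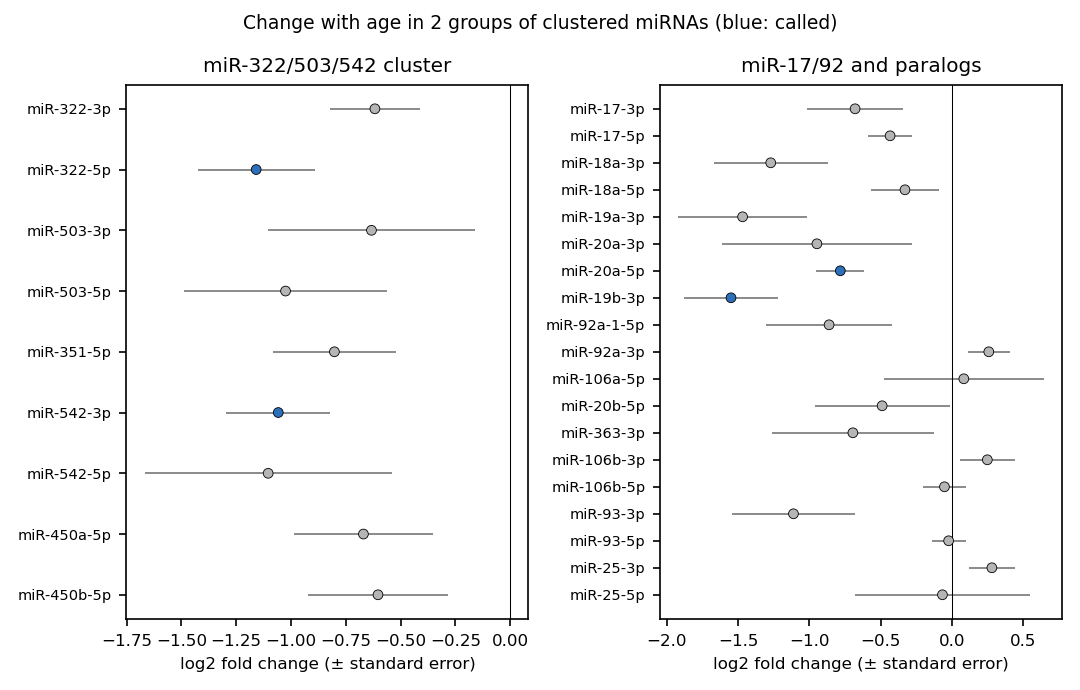
Log2 fold change (15 against 2 months, horizontal axis) of each tested miRNA of the mir-322 cluster (left) and of the miR-17/92 cluster with its paralogs (right), with bars for the standard error. Blue points were called; all 9 members on the left are below 0, and 15 of 19 on the right.

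The Dlk1-Dio3 cluster on chromosome 12 is an imprinted region that holds the largest group of brain miRNAs, and these miRNAs are expressed from the maternal chromosome. Of its 105 names, 95 were tested, of which 6 were called lower and none higher, against 2.1% and 1.96% of all tested names. Of the 6, 2 are the nearly identical miR-299a-3p and miR-299b-3p, 2 (miR-412-5p and miR-541-5p) were called with the hippocampus fitted alone, and without aged mouse 4 miR-412-5p alone was called. All aged libraries lay below all young ones for 21 names and above them for 5, against 10.6% and 10.5% of all tested names. The median was −0.12 (−0.23 to −0.10 with 1 library left out, −0.35 scaled by total reads), with values from −1.33 to 1.16. The called names were miR-412-5p, miR-299a-3p, miR-299b-3p, miR-679-5p, miR-541-5p and miR-409-3p, all of them within chr12:109709060-109747960 (GRCm38), on the plus strand apart from mir-299b on the minus strand.

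miR-541-5p was the most abundant of these, at 3076, 3473 and 4299 CPM at 2 months and 1925, 2650 and 2066 CPM at 15 months (log2 change −0.71, standard error 0.19, adjusted p = 0.0484). miR-409-3p was at 1068, 1021 and 1189 CPM at 2 months and 712, 795 and 676 CPM at 15 months (log2 change −0.59, standard error 0.13, adjusted p = 0.0263). miR-679-5p was at 20.2 to 25.6 CPM at 2 months and 12.5 to 14.7 CPM at 15 months (log2 change −0.76, adjusted p = 0.0395). In each of these the groups were apart, and each lost its call without any one of young mice 2 and 3 and aged mice 4 and 6. miR-409-3p and miR-679-5p also lost it with the hippocampus fitted alone. miR-299a-3p and miR-299b-3p, whose precursors overlap on opposite strands and whose mature sequences share their first 18 bases, had nearly equal counts and cannot be told apart (log2 changes −0.85 and −0.85, both at an adjusted p of 0.0484). Both lost the call in 6 of 16 alternatives, namely the same leave-outs, mouse 4 left out in both tissues, and the hippocampus fitted alone.

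Other abundant members of the cluster had higher mean levels in aged mice without a call. miR-127-3p, the most abundant miRNA of the hippocampus, was at 120841, 118666 and 154862 CPM at 2 months and 234083, 141548 and 174951 CPM at 15 months. Aged mouse 4 had the highest level of all, and the groups overlapped (log2 change 0.48, adjusted p = 0.174). miR-434-3p and miR-410-3p had log2 fold changes of 0.44 and 0.47 (adjusted p = 0.0987 and 0.174), each with all aged libraries above all young ones. The host transcript Mirg and the other noncoding RNAs of the locus were not tested here, and the neighbouring protein-coding genes Dlk1 and Dio3 had log2 fold changes of 0.27 and 0.22 in the mRNA libraries (adjusted p = 0.757 and 0.842).

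The Sfmbt2 cluster is a rodent-specific group of many near-identical precursors in an intron of the gene Sfmbt2 on chromosome 2, best known from the placenta. Of its 65 names, 44 were tested, in 32 distinct sets of counts, since several names share the same reads. Of the 32 sets, 27 had negative values, 2 were called lower and none higher, and 11 had aged libraries all below the young ones. Over all tested names these shares were 2.1% called lower, 1.96% called higher and 10.6% with aged libraries below. Both called sets lost the call without young mouse 3 or without aged mouse 4. miR-467e-5p also lost it without young mouse 1 or 2, without aged mouse 6, and with the hippocampus fitted alone. The median over the 44 names was −0.73, and it ran from −0.998 to −0.481 with 1 library left out. Levels were low, with 34 of the 44 names among the 238 lowest of all tested names, whose own median log2 fold change was −0.04. The Sfmbt2 mRNA had a log2 change of −0.06 (adjusted p = 0.869).

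The called members were miR-669a-5p with miR-669p-5p, which have identical counts, and miR-467e-5p. miR-669a-5p was at 11.9, 8.45 and 12.1 CPM at 2 months and 4.71, 3.59 and 6.35 CPM at 15 months (log2 change −1.14, standard error 0.23, adjusted p = 0.0225). miR-467e-5p was at 10.8, 12.1 and 8.81 CPM at 2 months and 5.76, 6.62 and 3.02 CPM at 15 months (log2 change −1.05, standard error 0.27, adjusted p = 0.0449). Neither overlapped between ages, and the lowest library was aged mouse 5 for the first and aged mouse 6 for the second. The remaining called decrease, miR-1983, was at 24.5, 32.3 and 33.4 CPM at 2 months and 9.56, 17.1 and 14.5 CPM at 15 months (log2 change −1.12, adjusted p = 0.0484), and is encoded on chromosome 13 (chr13:21896918-21897049, minus strand, GRCm38).

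**Figure D4:**
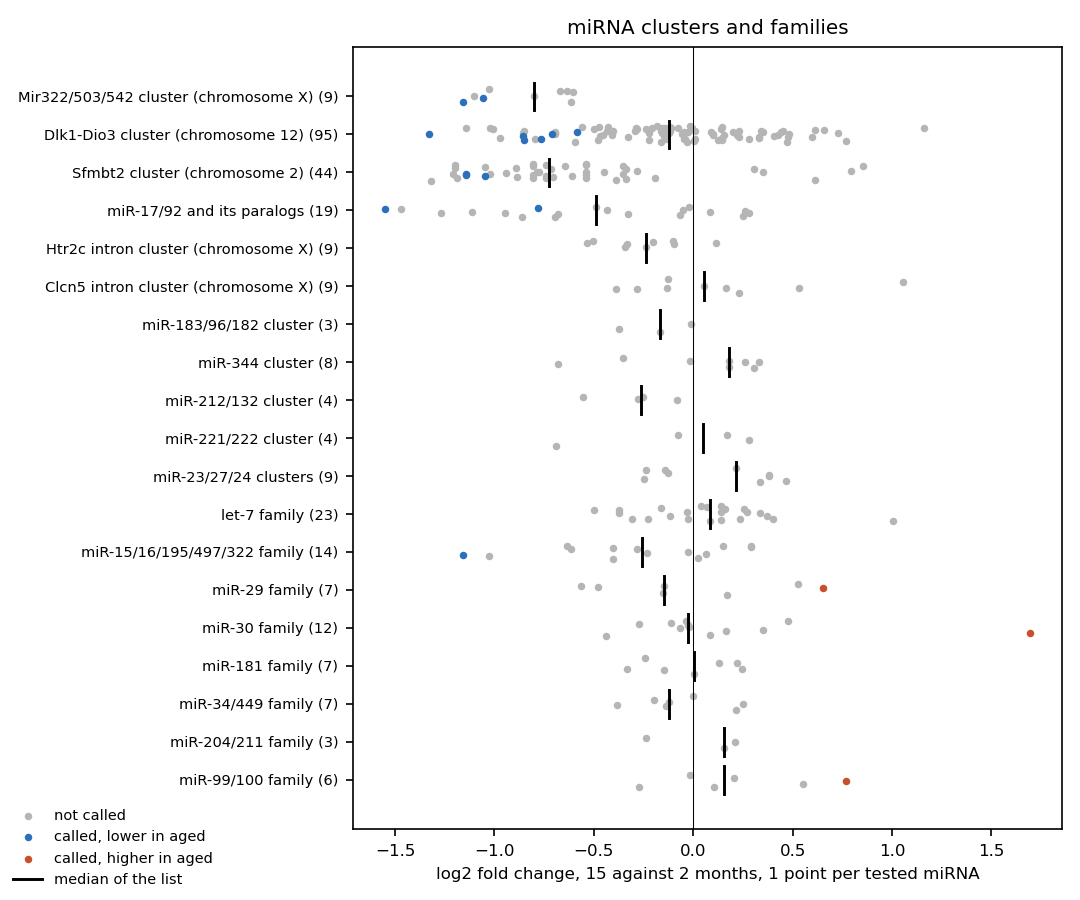
Log2 fold change (15 against 2 months, horizontal axis) of every tested miRNA in 19 clusters and families, with 1 point per name, the number of tested names in parentheses and a black bar at the median. The medians of the mir-322 cluster (−0.80) and the Sfmbt2 cluster (−0.73) lie farthest below 0, while the let-7 (0.08), miR-30 (−0.02) and miR-181 (0.00) families lie near it.

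The most abundant of the called increases were miR-126a-5p, miR-100-5p and miR-29a-3p. miR-126a-5p, from an intron of the endothelial gene Egfl7, was at 7246, 7488 and 6545 CPM at 2 months and 14009, 11453 and 9744 CPM at 15 months. All aged libraries lay above all young ones, with aged mouse 4 highest (log2 change 0.73, standard error 0.15, adjusted p = 0.0228). The call was lost in 6 of 16 alternatives. Among them were leaving out aged mouse 4 (log2 change 0.52, adjusted p = 0.126) and scaling by total reads (0.49, adjusted p = 0.0509). The 3p arm of the same precursor, at 903 to 1180 CPM at 2 months and 1023 to 1192 CPM at 15 months, had a log2 change of 0.04 (adjusted p = 0.880). The mRNA of Egfl7 was at 23.5, 22.8 and 20.6 CPM at 2 months and 14.7, 20.0 and 16.9 CPM at 15 months, a log2 change of −0.38 (adjusted p = 0.130). The arm ratio of mir-126a was not called (adjusted p = 0.125).

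miR-29a-3p belongs to a family known to repress collagens and other matrix genes. It was at 3602, 3633 and 2941 CPM at 2 months and 5648, 5992 and 4375 CPM at 15 months (log2 change 0.65, standard error 0.15, adjusted p = 0.0254). miR-29a-3p lost the call in 8 of 16 alternatives, among them the hippocampus fitted alone and scaling by total reads (log2 change 0.42, adjusted p = 0.101). Its seed mate miR-29c-3p was at 506, 486 and 412 CPM at 2 months and 713, 739 and 573 CPM at 15 months. With a log2 fold change of 0.53, it passed the adjusted p (0.0484) but not the 1.5-fold limit. miR-29b-3p overlapped between ages (log2 change 0.17, adjusted p = 0.574), and the 4 tested 5p arms of the family had values of −0.56 to −0.14, none called.

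miR-100-5p, whose family is known to act on mTOR signalling, was at 3202, 3227 and 4293 CPM at 2 months and 5942, 5546 and 6778 CPM at 15 months (log2 change 0.77, standard error 0.17, adjusted p = 0.0254). It lost the call in 7 of 16 alternatives, scaling by total reads among them (log2 change 0.56, adjusted p = 0.068). Its seed mate miR-99a-5p was at 981, 869 and 937 CPM at 2 months and 1490, 1334 and 1259 CPM at 15 months, a log2 change of 0.55 (adjusted p = 0.0492) that is under the fold limit. The third member, miR-99b-5p, was not called (log2 change 0.20, adjusted p = 0.672). At any fold change, 31 names had an adjusted p under 0.05, the 29 called ones with miR-29c-3p and miR-99a-5p.

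miR-384 and miR-873a are miRNAs enriched in brain. miR-384-3p was at 454, 411 and 334 CPM at 2 months and 683, 644 and 651 CPM at 15 months, with aged libraries close together and above the young ones (log2 change 0.72, standard error 0.14, adjusted p = 0.0225). It lost the call in 7 of 16 alternatives, scaling by total reads among them (log2 change 0.49). Its 5p arm had a log2 change of 0.43 (adjusted p = 0.110). miR-873a-3p, from an intron of the neuronal gene Lingo2, was at 58.4, 73.8 and 97.2 CPM at 2 months and 164, 122 and 146 CPM at 15 months (log2 change 0.91, standard error 0.18, adjusted p = 0.0225). Its 5p arm had a log2 change of 0.67 and was not called (adjusted p = 0.0992). The Lingo2 mRNA was at 14.8, 15.7 and 13.7 CPM at 2 months and 19.5, 18.7 and 19.1 CPM at 15 months (log2 change 0.37, adjusted p = 0.0749).

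miR-142a-5p, a marker of leukocytes and microglia, was between 193 and 220 CPM at 2 months and at 374, 304 and 253 CPM at 15 months (log2 change 0.62, adjusted p = 0.0449). The call was lost in 13 of 16 alternatives, and without aged mouse 4 the log2 change was 0.40 (adjusted p = 0.316). Of the 8 tested names in the list of leukocyte and microglia markers it was the 1 called, against 1.96% of all tested names called higher. Its 3p arm had a log2 change of −0.12 (adjusted p = 0.816). The summed level of that list was 929 to 1480 CPM at 2 months and 1297 to 1464 CPM at 15 months, with overlap. miR-203-3p, an epithelial miRNA, was at 114 to 129 CPM at 2 months and 152 to 225 CPM at 15 months (log2 change 0.65, adjusted p = 0.0484), and lost the call in 12 of 16 alternatives. The other 6 tested epithelial markers were not called.

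The remaining increases were of lesser-known or low miRNAs. miR-3082-3p, in an exon of Stub1, was at 57.0, 51.3 and 69.2 CPM at 2 months and 107, 95.4 and 110 CPM at 15 months (log2 change 0.82, adjusted p = 0.0225). miR-5099 was at 32.2 to 38.2 CPM at 2 months and 54.4 to 83.9 CPM at 15 months (0.93, adjusted p = 0.0449), and lost the call in 12 of 16 alternatives. miR-135a-1-3p was at 3.56 to 4.29 CPM and 5.29 to 9.27 CPM (1.02, adjusted p = 0.0442) and lost the call in 11 of 16, while its abundant 5p arm, miR-135a-5p, had a log2 change of −0.30 (adjusted p = 0.573). In all 3 the groups were apart. miR-8114 was at 10.6 to 11.9 CPM at 2 months and 15.1 to 26.2 CPM at 15 months (0.88, adjusted p = 0.0439), and miR-3084-3p at 13 to 21.4 CPM and 26.1 to 30.2 CPM (0.82, adjusted p = 0.0414).

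miR-5100 had the largest fold change of the increases and few reads. It had 9, 4 and 3 reads in young and 39, 13 and 35 reads in aged mice, or 0.238 to 0.534 CPM against 1.01 to 5.11 CPM (log2 change 2.90, standard error 0.64, adjusted p = 0.0254). The level in aged mouse 4 was the highest, and the call was lost without that library, young mouse 2 or 3, or aged mouse 6. miR-30f had 9, 7 and 5 reads in young and 12, 30 and 12 reads in aged mice (log2 change 1.69, standard error 0.43, adjusted p = 0.0449). Its call was lost in 12 of 15 alternatives, DESeq2 among them, over which the log2 change ran from 0.67 to 1.96. Its seed, UAAACAU, differs from that of miR-30a-5p, GUAAACA, by a shifted start, so that the seeds overlap in UAAACA. The 11 other tested names of the miR-30 family were not called.

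Sequences of the tested names were searched in the tRNA, rRNA, snoRNA and snRNA genes of RefSeq (GRCm38.p6), as runs of at least 18 exact bases. Sequence flanking the annotated genes was not searched, apart from the CCA end added to tRNA, so a match there would be missed. In this search, 5 names (0.699% of those tested) had such a run, and 2 of them were among the 29 called. miR-5100 shares 20 of its 21 bases with 4 genes of tRNA-Thr with their CCA end, and all 21 bases of miR-3084-3p lie in a gene of small nucleolar RNA, H/ACA box 19. Reads of these 2 names thus cannot be assigned to a miRNA by sequence alone. The other 3 names, none called, were miR-664-5p, miR-664-3p and miR-5121.

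**Figure D5:**
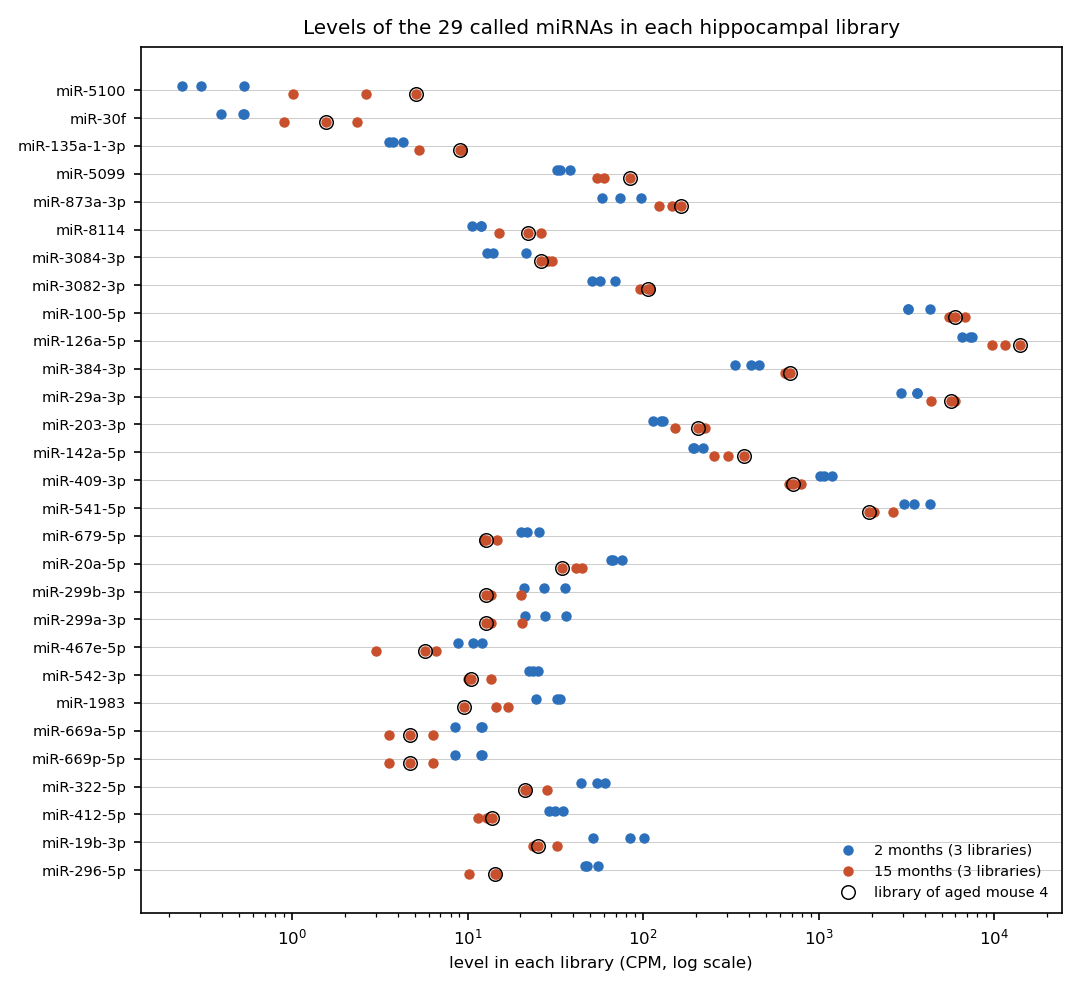
Level of each of the 29 called miRNAs in each hippocampal library (CPM, log scale), ordered by fold change, with young mice in blue and aged mice in red. The black circle marks aged mouse 4, which is the most extreme library in the direction of the call for 12 of the 29 names, against 8 for aged mouse 5 and 9 for aged mouse 6.

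The 10 most abundant names, among them miR-127-3p, miR-181a-5p, miR-30a-5p, miR-191-5p and miR-9-5p, were not called. miR-30a-5p was higher in every aged library (log2 change 0.48, adjusted p = 0.112), as was miR-143-3p, the smooth muscle miRNA, at 35270, 29220 and 23046 CPM at 2 months and 55365, 44820 and 40622 CPM at 15 months (0.69, adjusted p = 0.0992). Calls made up 4.06% of all tested names, a share at which a count of 0 in so few names is no result about a family. No call was made in the let-7 family (0 of 23 tested, median 0.08), the miR-34 list (0 of 7, median −0.12), the miR-181 family (0 of 7, median 0.00) and the miR-132 cluster (0 of 4, median −0.26), but these medians are not stable. Those of let-7 and miR-181 turn negative when scaled by total reads, and with 1 library left out all 4 take both signs (let-7 from −0.03 to 0.13, miR-34 from −0.30 to 0.07, miR-181 from −0.21 to 0.09 and miR-132 from −0.48 to 0.01). The miR-34 list does not hold miR-449c-5p, which shares the seed and had 21, 20 and 39 reads in young and 0, 7 and 16 reads in aged mice (log2 change −1.56, adjusted p = 0.168). Unadjusted p-values under 0.05 were reached by 145 of the 715 names.

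Marker miRNAs of other cell types were summed in each library. Endothelial markers stood at 7651 to 8667 CPM at 2 months and 10819 to 15032 CPM at 15 months, but this list holds the 2 arms of mir-126a alone, of which the 5p arm makes up most. Smooth muscle and pericyte markers stood at 23291 to 35377 CPM at 2 months and 40743 to 55434 CPM at 15 months, nearly all of it from miR-143-3p, and 0 of 4 were called. Of the 4, 2 had negative values, among them the other main marker, miR-145a-5p (log2 change −0.82, adjusted p = 0.204), whose groups overlapped. Hypothalamus and pituitary markers were at 807 to 1053 CPM at 2 months and 580 to 791 CPM at 15 months, led by miR-7a-5p, with 0 of 6 called. In the mRNA libraries, the hypothalamic markers Pmch, Avp, Oxt, Pomc, Gal and Hdc also had negative log2 changes (−2.04 to −0.40), none of them called (adjusted p from 0.186 to 0.650). The oligodendrocyte list (0 of 5 called), the erythroid list (0 of 7), the fibroblast list (0 of 5) and the striated muscle list (0 of 6) had medians of 0.11, 0.03, 0.11 and 0.10, which turn negative when scaled by total reads. Of the 23 tested neuron markers, miR-384-3p alone was called (1.96% of all tested names were called higher). The median of the neuron list was −0.02 (−0.19 to 0.08 with 1 library left out, −0.24 scaled by total reads). Of the liver list, 0 of 4 were called, and miR-122-5p was at 1.70 to 2.02 CPM on average. The part of these cell types in the other results was not tested.

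Host genes were examined in the 6 hippocampal mRNA libraries. Of 198 genes that overlap a tested miRNA on the same strand, 158 were tested, and none was called by edgeR's quasi-likelihood test at the same limits (0.29% of all 14820 tested genes were called). An unadjusted p under 0.05 was reached by 42 host genes (26.6%), against 22.7% of all tested genes. DESeq2 called 1 host gene, Tmem245, and limma called 0. Of the called miRNAs, 6 host genes were tested, namely Cbwd1, Egfl7, Eif3a, Lingo2, Mief2 and Stub1. Their log2 fold changes ran from −0.38 for Egfl7 to 0.37 for Lingo2, and that of Mief2, which hosts miR-5100, was −0.22 (adjusted p = 0.144).

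The age effect was compared with that in the hypothalamus of 3 young and 3 aged mice that bear the same numbers in the labels. There, 4 names (0.559%) were called. miR-412-5p was at 32.7, 30.3 and 29.2 CPM at 2 months and 10.5, 12.2 and 11 CPM in aged hypothalami, a log2 change of −1.45 (adjusted p = 0.000298) beside −1.33 in the hippocampus. miR-542-3p was called in both tissues (−1.14 and −1.06), and miR-322-3p (−1.04, adjusted p = 0.0406) and miR-3064-3p (2.67, adjusted p = 0.0406) in the hypothalamus alone. For these 4 names the interaction of age and tissue was not called (adjusted p from 0.896 to 0.990).

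By the interaction test over 12 libraries, 1 name (0.14% of those tested) differed in its age effect between the tissues. miR-296-5p stood at 84.1, 73.1 and 77.1 CPM at 2 months and 54.9, 58.9 and 50.3 CPM in aged hypothalami, a log2 change of −0.51 (adjusted p = 0.301) against −1.94 in the hippocampus. The hippocampal change minus the hypothalamic one was −1.43 (standard error 0.24, adjusted p = 0.0215). With the mouse number as a block, the difference was −1.44 at an adjusted p of 0.108, so that the call was lost. It was also lost with any of mice 1 to 5 left out (adjusted p from 0.0789 to 0.343) but not without mouse 6 (adjusted p = 0.0240), and DESeq2 called it (adjusted p = 1.81e-06).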

How the data were processed

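The 6 hippocampal small-RNA libraries were analysed with the 6 of the hypothalamus and the 6 hippocampal mRNA libraries. For the small RNA, the authors used a TruSeq small RNA kit, miRDeep2 and miRBase with the mm10 genome, and deposited read counts per precursor and arm. Where a mature name had several precursors, the highest count was taken. For the mRNA, the authors deposited RSEM expected counts, rounded here before testing, and FPKM values, used for marker levels.

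Counts were scaled by TMM and tested with the quasi-likelihood test of edgeR 4.0.16 (R 4.3.3) in 1 fit of 4 groups and 12 libraries, after filterByExpr. Calls needed a change of more than 1.5-fold and a Benjamini-Hochberg adjusted p under 0.05. The study's methods name the Wald test of DESeq2, which was run as an alternative (DESeq2 1.42.0). Arm ratios (offset 0.5) were tested with limma 3.58.1. Levels are in CPM, computed from the counts with library totals multiplied by their TMM factors. The scripts were tested on simulated data. Precursors were clustered where they lay within 10 kb on 1 strand, and 788 of 992 precursors matched RefSeq.

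Named miRNAs were the 12 largest calls per direction without overlap, those the study names, the 10 most abundant, list members, the other arms, the 5 lowest p-values of the arm test and the called interaction. The members and lists were chosen with earlier results of these data known. Alternatives covered the tool, scaling, filter, merging of names, the mouse block and leaving out each library. With 3 mice a group, p-values rest on the spread between these mice.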

Additional observations from a re-analysis of the deposited data

Results flagged for a closer look

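The age effect on miR-296-5p differed between the tissues by the test of the difference itself, with the hippocampal log2 fold change minus the hypothalamic one at −1.43. The call was lost with the mouse number as a block and with any of mice 1 to 5 left out.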

How the results depend on the processing

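The number of called names (29) was 20 with the hippocampus fitted alone (8 higher, 12 lower) and 39 with DESeq2 on those 6 libraries (17 higher, 22 lower, 27 of them shared). It was 36 scaled by total reads (3 higher, 33 lower), 56 with every name of at least 1 read (22 higher, 34 lower) and 45 with limma on log2(RPM + 1) (3 higher, 42 lower). It was 24 with counts summed over precursors (7 higher, 17 lower), 26 with DESeq2 size factors or at least 10 counts per library, 25 with identical names merged and 31 with no fold limit. The cause of these moves was not tested. Leaving out 1 library gave 2 to 29 calls (0 to 10 higher, 2 to 21 lower), 0 to 1 interactions, 0 to 6 arm ratios and 0 to 1 host genes. Leaving out mouse 4 in both tissues, chosen after seeing the data, gave 2 calls, both lower and 0 higher. An offset of 5 gave 2 arm ratios, and DESeq2 gave 1 host gene. The labels give the same mouse numbers in both tissues, but same-numbered libraries did not all deviate together (r from −0.149 to 0.457), and with the number as a replicate block 0 interactions were called, miR-296-5p at −1.44 (adjusted p = 0.108). Leaving out a mouse put that difference between −1.63 and −1.21. No called name reversed in any alternative. miR-5100 and miR-30f rest on few reads, 3 to 39 and 5 to 30 per library.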
